A study of Mus musculus with 8 samples.

Results

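The genes described here belong to proximal bicarbonate reclamation, and they were taken by name from the gene table of an RNA-Seq comparison of mouse kidneys. They are *Slc4a4*, *Slc9a3*, *Slc9a3r1*, *Slc9a8*, and *Slc4a2*, which encode transporters and a scaffold, and *Car2*, *Car4*, *Car12*, *Car14*, and *Car15*, which encode carbonic anhydrases. All 10 were found among the 55367 gene names of the table, and all 10 had enough reads to be among the 20149 genes tested. The study compared whole kidneys of 4 *c-Maf*ΔTAM mice (ΔTAM mice) with those of 4 *c-Maf fl/fl* mice (controls) to ask which genes change when the transcription factor c-Maf is lost in adults. All mice were C57BL/6J and are labelled as 8 weeks old, and each mouse gave 1 library. The *c-Maf*ΔTAM mice carried floxed *c-Maf* and *CAG-Cre-ER*TM, a Cre that tamoxifen (TAM) activates, whereas the controls carried floxed *c-Maf* without Cre. Per the study's methods, TAM was given to both, starting at 8 weeks of age. The study's nondiabetic comparison of these genotypes was made 10 days after TAM. The CAG promoter is active in most tissues, so loss of c-Maf in the tubule and loss elsewhere cannot be told apart in these samples.

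Most of the bicarbonate that the glomerulus filters is taken back in the proximal tubule. At the apical brush border, the sodium-proton exchanger NHE3 secretes protons, membrane carbonic anhydrases turn the filtered bicarbonate into carbon dioxide, and cytosolic carbonic anhydrase II rebuilds bicarbonate inside the cell. The electrogenic cotransporter NBCe1 then carries bicarbonate out across the basolateral membrane, and inherited loss of NBCe1 is known to cause proximal renal tubular acidosis.

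Before the genotypes were compared, the targeted gene and the libraries were checked. *Maf* had 178 to 671 counts in ΔTAM mice and 5988 to 7746 counts in control mice, so all 8 labels matched their groups (log2 fold change -4.05 ± 0.51 SE, adjusted *P* = 0.0115 by edgeR's quasi-likelihood test). Libraries held 16649129 to 22990257 counts, of which 17.1% to 32.3% fell on mitochondrial genes, the highest share in ΔTAM mouse 1. *Xist*, the RNA of the inactive X chromosome, had only 2, 6, and 22 counts in ΔTAM mouse 1 and control mice 3 and 4, and 17618 to 22387 counts in the other 5 mice. The labels give no sex, so fits with the *Xist* level as a covariate and fits of the 5 mice with high *Xist* are given where they change a call or a direction of a member. The RNA protocol in the labels names liver, but the kidney gene *Umod* stood at 2588 CPM in ΔTAM and 2829 CPM in control mice, and 6 hepatocyte markers summed to only 4.32 to 22.3 CPM and 7.00 to 15.8 CPM.

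Loss of c-Maf was accompanied by less RNA for the basolateral bicarbonate exit step and for 1 membrane carbonic anhydrase, while 7 of the 10 members were not called. Values are TMM-normalized CPM, that is, read counts scaled to a common library size, and a gene was called when its Benjamini-Hochberg adjusted *P*, over all 20149 genes, was under 0.05 in edgeR's quasi-likelihood test. Of the 10 members, 3 were called lower in ΔTAM mice (*Slc4a4*, *Car14*, and *Slc9a3r1*), against 1.58% of all genes tested. The members were chosen with earlier results of these data known, so the counts here are not a test of the group. None (0) was called higher, against 0.586% of all genes, and at an unadjusted *P* under 0.05 there was 1 such member, *Slc9a8*, against 6.58% of all genes. At the same cut, 5 members were lower, against 7.44% of all genes. DESeq2 called 4 members lower (*Car12* in addition) and 0 higher, against 2.81% and 1.59% of all genes by that method. The exact test of edgeR called 2 members lower (*Slc4a4* and *Car14*) and 0 higher, against 1.21% and 0.694% of the 31280 genes tested there. In 4 members, *Slc4a4*, *Slc9a3r1*, *Car12*, and *Car14*, all ΔTAM mice lay below all control mice, a pattern found in 5.62% of all genes, and in 0 members did they all lie above, a pattern found in 4.17%. The median log2 fold change was -0.31 over the members and 0.0027 over all genes tested. With the *Xist* level as a covariate, 6 members were called lower (*Slc9a3*, *Car2*, and *Car12* in addition) and 1, *Slc9a8*, was called higher, against 4.23% and 2.59% of all genes in that fit. In the 5 mice with high *Xist*, 4 members were called lower (*Car12* in addition) and 0 higher, against 2.22% and 1.53% of the 21027 genes tested there.

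**Figure D1:**
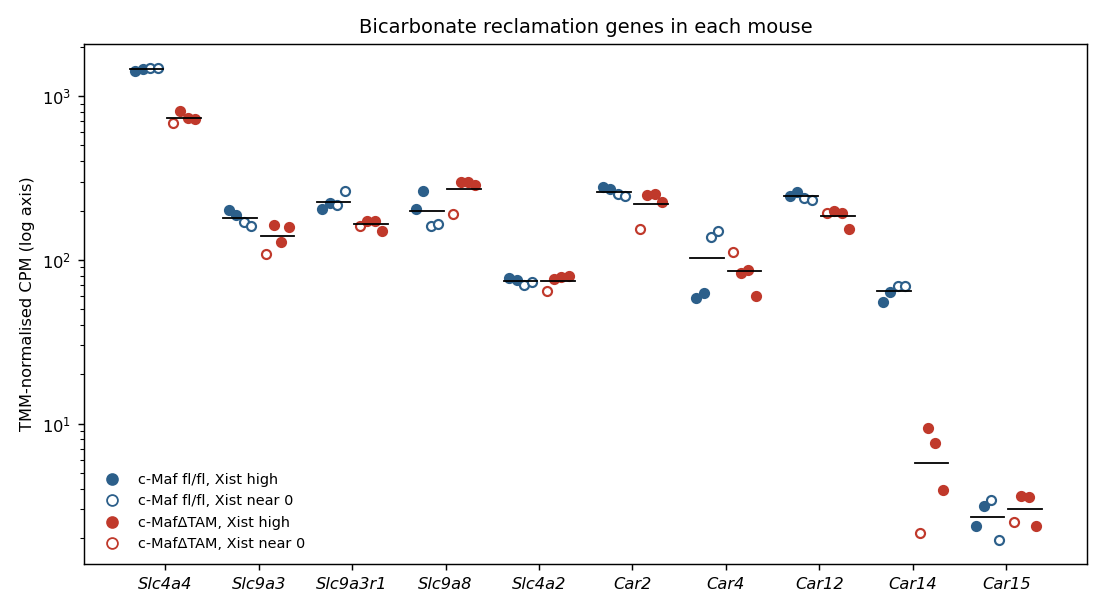
TMM-normalized CPM of each member (log axis) in the 4 control mice (blue) and the 4 ΔTAM mice (red). Lines mark group means, open symbols mark the 3 mice with almost no *Xist*, and *Car14* and *Slc4a4* show the widest gaps between genotypes.

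*Slc4a4*, which encodes NBCe1, had the highest mean level of the members in control kidneys. It stood at 1414, 1470, 1488, and 1493 CPM in control mice 1 to 4, and at 688.8, 811.7, 730.1, and 721.2 CPM in ΔTAM mice 1 to 4. The groups did not overlap, and each was tight, with the highest ΔTAM mouse far below the lowest control. The mean fell to 50.3% of the control mean, from 1466 ± 36.3 to 737.9 ± 52.3 CPM (SD, *n* = 4 each). Fitted over all genes, the log2 fold change was -0.99 ± 0.089 (SE), with a 95% confidence interval from -1.18 to -0.80 and an adjusted *P* of 0.000113 by edgeR's quasi-likelihood test. Leaving out each mouse in turn kept the call in 8 of 8 fits, with log2 fold changes from -1.04 to -0.96. The 5 mice with high *Xist* gave -0.94, so the difference was about as large among mice with similar *Xist*. In whole kidney, fewer proximal tubule cells and less RNA per cell cannot be told apart.

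*Slc4a4* spans chr5:88886486-89239653 on the plus strand (GRCm38), and its exons share no base with another annotated gene. RefSeq gives it more than 1 start on GRCm38.p6, and the 250 bases before the internal start, at chr5:89027716-89027965, are shown because the gene was lower in every ΔTAM mouse. Capitals mark matches on either strand to 6 short motifs: the half-MARE (a Maf recognition element with 1 arm) TGCTGAC, the TRE core TGACTCA, the HNF1 half-site GTTAAT, the TATA box TATAAA, the GC box GGGCGG, and the CCAAT box CCAAT.
Slc4a4, internal start: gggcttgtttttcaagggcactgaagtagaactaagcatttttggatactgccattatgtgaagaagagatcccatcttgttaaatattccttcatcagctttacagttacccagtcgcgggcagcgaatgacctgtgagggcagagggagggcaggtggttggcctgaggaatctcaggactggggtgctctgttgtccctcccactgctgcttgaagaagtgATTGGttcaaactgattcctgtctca
The only match was a reversed CCAAT box from 26 to 22 bases before the start. The upstream window of *Slc4a4* lies in an annotated exon and is not shown.

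*Car14* showed the largest relative change among the members. It encodes carbonic anhydrase XIV, an enzyme anchored in the membrane with its catalytic side facing out, known from both membranes of the proximal tubule. Its read counts were 1129, 1409, 1358, and 1188 in control mice 1 to 4 and 42, 182, 137, and 72 in ΔTAM mice 1 to 4. As CPM, these were 55.4, 63.6, 68.9, and 69.7 in controls, and 2.14, 9.35, 7.60, and 3.90 in ΔTAM mice. All ΔTAM mice were far below all controls, although they also differed among themselves, with mouse 1 lowest and mouse 2 highest. The mean fell to 8.92% of the control mean. The log2 fold change was -3.49 ± 0.42 (SE), with a 95% confidence interval from -4.47 to -2.50 and an adjusted *P* of 0.00756 by edgeR's quasi-likelihood test. The call held in 8 of 8 fits that left out 1 mouse (-3.83 to -3.21) and in the 5 mice with high *Xist* (-3.10, adjusted *P* = 0.0151).

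*Car14* spans chr3:95897768-95904691 on the minus strand, and 17.5% of its exon bases are shared with *Aph1a*, where reads were not counted for either gene. *Aph1a* had a log2 fold change of -0.53 (adjusted *P* = 0.0950 by the same test), with all ΔTAM mice below all controls. The bases before the *Car14* start are shown because this gene fell most, without the 6 bases next to the start that lie in an annotated exon (GRCm38.p6, chr3:95904692-95904935, minus strand).
Car14: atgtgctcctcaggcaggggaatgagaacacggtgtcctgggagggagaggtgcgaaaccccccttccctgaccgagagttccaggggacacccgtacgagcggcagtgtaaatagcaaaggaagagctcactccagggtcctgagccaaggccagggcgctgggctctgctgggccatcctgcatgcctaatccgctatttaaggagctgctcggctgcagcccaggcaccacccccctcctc
None of the 6 motifs matched in it, so no letter is in capitals.

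*Slc9a3r1* encodes NHERF1, the PDZ scaffold that ties NHE3 and other brush border transporters to ezrin. It stood at 203.5, 221.2, 217.1, and 262.5 CPM in control mice and 161.7, 172.7, 173.8, and 150.4 CPM in ΔTAM mice. The groups did not overlap, but the gap between them was narrow, and the mean fell to 72.8% of the control mean. Its log2 fold change was -0.46 ± 0.098 (SE), with a 95% confidence interval from -0.67 to -0.24 and an adjusted *P* of 0.0334 by edgeR's quasi-likelihood test. The call held in 1 of 8 fits that left out 1 mouse, where the log2 fold change stayed between -0.51 and -0.37 and the adjusted *P* reached 0.0893. control mouse 1 was the only mouse whose removal kept the call, and the adjusted *P* was 0.0729 by edgeR's exact test. Among the high *Xist* mice it was -0.36 (adjusted *P* = 0.0329 by the quasi-likelihood test).

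*Slc9a3r1* spans chr11:115163341-115181181 on the plus strand. The 250 bases before its start (GRCm38.p6, chr11:115163091-115163340) are shown for contrast with *Car14*, since they are the richest in motif matches among the members.
Slc9a3r1: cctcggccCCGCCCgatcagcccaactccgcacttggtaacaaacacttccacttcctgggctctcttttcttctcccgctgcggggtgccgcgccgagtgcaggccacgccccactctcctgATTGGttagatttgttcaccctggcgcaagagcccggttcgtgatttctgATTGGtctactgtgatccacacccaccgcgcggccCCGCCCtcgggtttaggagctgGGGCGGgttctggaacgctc
The capitals mark 5 matches, all to the GC box or the CCAAT box. RefSeq gave windows for 9 of the 10 members (*Car2* had none), and the GC box was found in 5 of these members, the CCAAT box in 3, and the other motifs in 0. Over all 32851 windows of this length, the GC box was found in 32.7%, the CCAAT box in 33.8%, the TATA box in 12.4%, the HNF1 half-site in 6.43%, the TRE core in 4.46%, and the half-MARE in 3.81%. These shares are per window. The members were counted by gene over 11 windows, including the exonic *Slc4a4* window, so the 2 counts are not like for like. These are matches of letters in short windows and do not show where a factor binds.

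The apical exchangers were not called. *Slc9a3*, which encodes NHE3, stood at 200.4, 187.8, 170.9, and 162.0 CPM in control mice and 108.8, 162.8, 128.8, and 158.6 CPM in ΔTAM mice. Only ΔTAM mouse 2 reached into the control range, at its lower end. The log2 fold change was -0.37 ± 0.13 (SE), with a 95% confidence interval from -0.65 to -0.085 and an adjusted *P* of 0.213 by edgeR's quasi-likelihood test. With the *Xist* covariate it was -0.44 (adjusted *P* = 0.00434), and with only the high *Xist* mice it was -0.37 (adjusted *P* = 0.0586).

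*Slc9a8* encodes NHE8, a sodium-proton exchanger of the proximal tubule that is known to be prominent early in life. It stood at 203.0, 264.3, 161.4, and 166.6 CPM in control mice and 191.3, 300.0, 299.0, and 286.1 CPM in ΔTAM mice. In each genotype, the mice with almost no *Xist* had the lowest values, and the ΔTAM mice with high *Xist* lay above all controls. The log2 fold change was 0.44 ± 0.19 (SE), with a 95% confidence interval from 0.025 to 0.85 and an adjusted *P* of 0.327 by edgeR's quasi-likelihood test. It was 0.33 with the *Xist* covariate (adjusted *P* = 0.0211) and 0.34 in the 5 mice with high *Xist* (adjusted *P* = 0.104). *Slc4a2*, which encodes the basolateral chloride-bicarbonate exchanger AE2, stood at 70.5 to 77.5 CPM in controls and 64.1 to 80.0 CPM in ΔTAM mice. Its log2 fold change was 0.011, with a 95% confidence interval from -0.18 to 0.20. *Slc4a2* shares 13.7% of its exon bases with other genes, mainly *Fastk*.

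**Figure D2:**
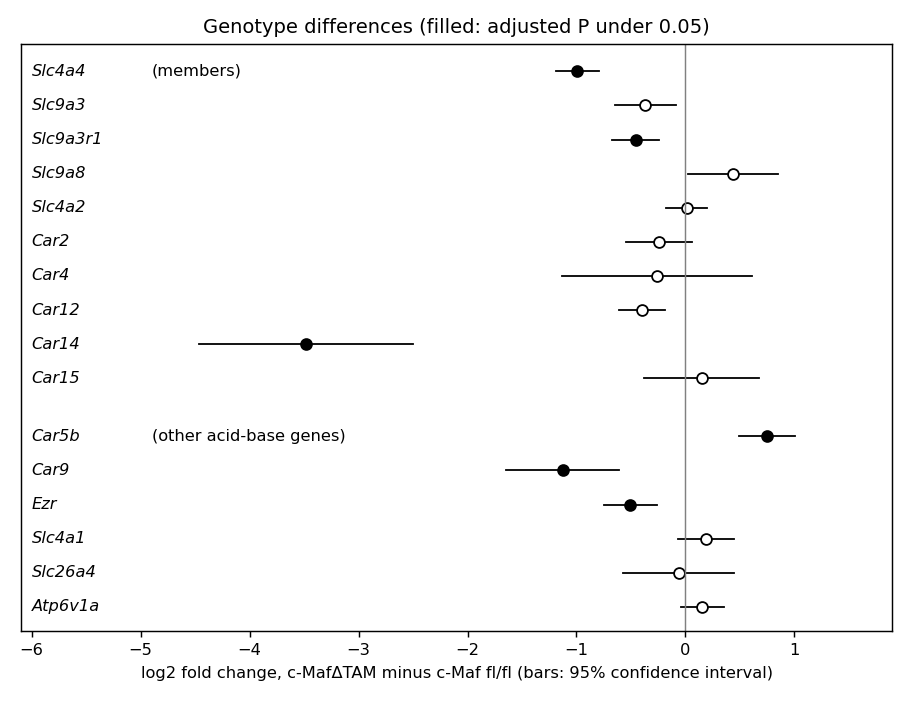
Log2 fold change of ΔTAM against control mice, with 95% confidence intervals, for the 10 members and for 6 other acid-base genes. Filled symbols are called by edgeR's quasi-likelihood test, and *Car14*, at -3.49, lies farthest from 0.

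The other carbonic anhydrases differed less than *Car14*. *Car12*, which encodes the membrane enzyme carbonic anhydrase XII, stood at 246.8, 258.4, 239.9, and 231.7 CPM in control mice and 193.1, 199.4, 194.1, and 154.0 CPM in ΔTAM mice. The groups did not overlap, and ΔTAM mouse 4 was lower than the rest. Its log2 fold change was -0.40 ± 0.097 (SE), and it missed the threshold (adjusted *P* = 0.0608 by edgeR's quasi-likelihood test). It passed in the 5 mice with high *Xist* (-0.47, adjusted *P* = 0.0181), with the *Xist* covariate (adjusted *P* = 0.00838), and by DESeq2 (adjusted *P* = 0.00703).

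*Car2*, the cytosolic carbonic anhydrase II, stood at 277.9, 270.6, 251.1, and 243.8 CPM in control mice and 154.9, 247.6, 252.2, and 226.9 CPM in ΔTAM mice. ΔTAM mouse 1 alone was far below the others, which lay in or near the control range. This was a log2 fold change of -0.24 ± 0.14 (SE, 95% confidence interval from -0.55 to 0.059, adjusted *P* = 0.475 by edgeR's quasi-likelihood test) and -0.10 without that mouse. With the *Xist* covariate it was -0.34 (adjusted *P* = 0.0286). *Car2* is also abundant in intercalated cells, whose 12 markers summed to 755 to 935 CPM in ΔTAM and 753 to 913 CPM in control mice.

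*Car4* encodes carbonic anhydrase IV, which is bound to the apical membrane by a lipid anchor. Its levels differed more with *Xist* than with genotype: control mice stood at 58.2 and 62.6 CPM where *Xist* was high and at 137.3 and 149.6 CPM where it was almost absent. In ΔTAM mice, it stood at 82.7, 86.1, and 60.1 CPM where *Xist* was high and at 111.4 CPM in mouse 1. The mean of the low *Xist* controls was 2.38 times that of the high *Xist* controls, and the genotypes overlapped. Between genotypes, the log2 fold change was -0.26 ± 0.37 (SE), with a 95% confidence interval from -1.13 to 0.61 (adjusted *P* = 0.820 by edgeR's quasi-likelihood test). Its sign turned to 0.33 in the 5 mice with high *Xist* (adjusted *P* = 0.294) and to 0.014 with the *Xist* covariate (adjusted *P* = 0.982).

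*Car15*, a further membrane-anchored carbonic anhydrase, was low at 1.94 to 3.40 CPM in controls and 2.38 to 3.59 CPM in ΔTAM mice, or 33 to 70 counts. Its log2 fold change was 0.15, with a 95% confidence interval from -0.38 to 0.68. Since 65.7% of its exon bases are shared with *Gm20518*, and reads there were not counted, its level is uncertain.

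Per length, the carbonic anhydrase members can be set beside each other. Summed over the 5 genes, they came to 218.4 ± 19.0 RPKM (CPM divided by the exon length in kilobases; SD, *n* = 4) in controls and 162.5 ± 17.0 RPKM in ΔTAM mice. *Car14* made up 10.9% to 12.2% of this sum in controls and 0.567% to 2.09% in ΔTAM mice. *Car2* made up the largest share in every mouse, at 42.7% to 57.4% in controls and 43.2% to 63.6% in ΔTAM mice. *Car12* stood at 14.8% ± 1.89 in controls and 15.0% ± 1.49 in ΔTAM mice (SD, *n* = 4 each), and its share overlapped between genotypes. *Car15* was the smallest part in controls, at 0.431% to 0.800%, and made up 0.848% to 1.07% in ΔTAM mice, all above the controls. A share rises when other parts of the sum fall, and the level of *Car15* itself overlapped between genotypes. Divided instead by the exon bases that no other gene shares, a check added after the data were seen, *Car14* made up 12.8% to 14.3% in controls and 0.675% to 2.47% in ΔTAM mice, and *Car15* 1.22% to 2.24% and 2.43% to 3.05%.

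**Figure D3:**
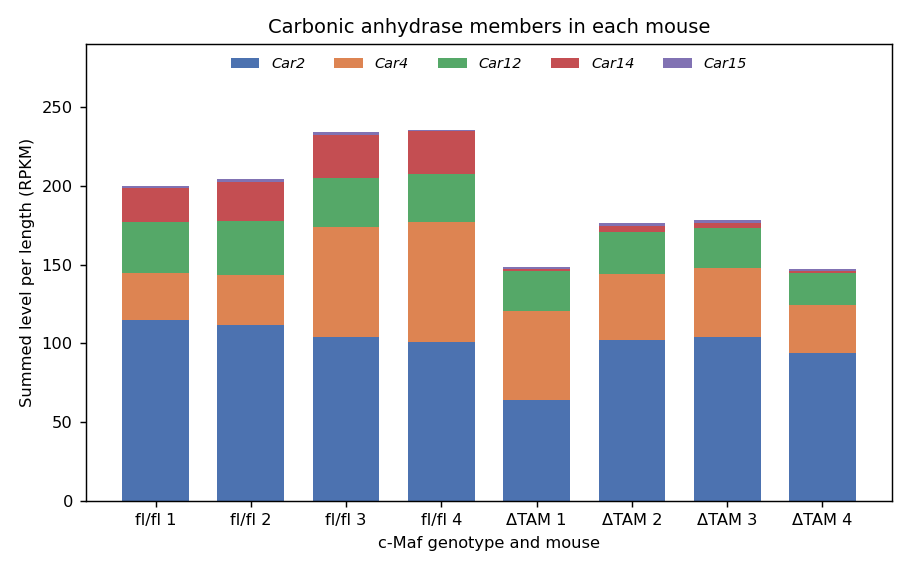
Stacked levels per length (RPKM) of the 5 carbonic anhydrase members in each mouse, with control mice on the left and ΔTAM mice on the right. The *Car14* segment shrinks from 10.9% to 12.2% of the bar in controls to at most 2.09% in ΔTAM mice.

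The order of the members' levels changed with genotype. In control mice, *Slc4a4* led at 129.4 ± 3.21 RPKM, followed by *Slc9a3r1* at 117.4 ± 13.2 RPKM and *Car2* at 107.7 ± 6.62 RPKM, and each of these neighbors overlapped between mice. Next came *Car4* (51.8 RPKM), *Slc9a3* (32.8 RPKM), and *Car12* (32.1 RPKM), which overlapped in the same way, then *Car14* (25.3 RPKM) and *Slc9a8* (21.9 RPKM), which also overlapped. *Slc4a2* (8.89 RPKM) and *Car15* (1.42 RPKM) closed the list, each apart from its neighbors. In ΔTAM mice, *Car2* led at 91.0 ± 18.6 RPKM with *Slc9a3r1* at 85.5 ± 5.69 RPKM, and *Slc4a4*, at 65.1 ± 4.61 RPKM, ranked 3 and lay below all *Slc9a3r1* values. *Car14* dropped below *Slc4a2* to 2.26 ± 1.30 RPKM, where it overlapped *Car15* at 1.58 ± 0.34 RPKM. The order of these 2 turned around over the exon bases that no other gene shares, where *Car15* stood at 4.60 ± 1.01 and *Car14* at 2.74 ± 1.58 RPKM in ΔTAM mice, still overlapping. On that length *Car14* stood at 30.7 ± 3.14 RPKM in controls, where it overlapped *Car12* as well.

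**Figure D4:**
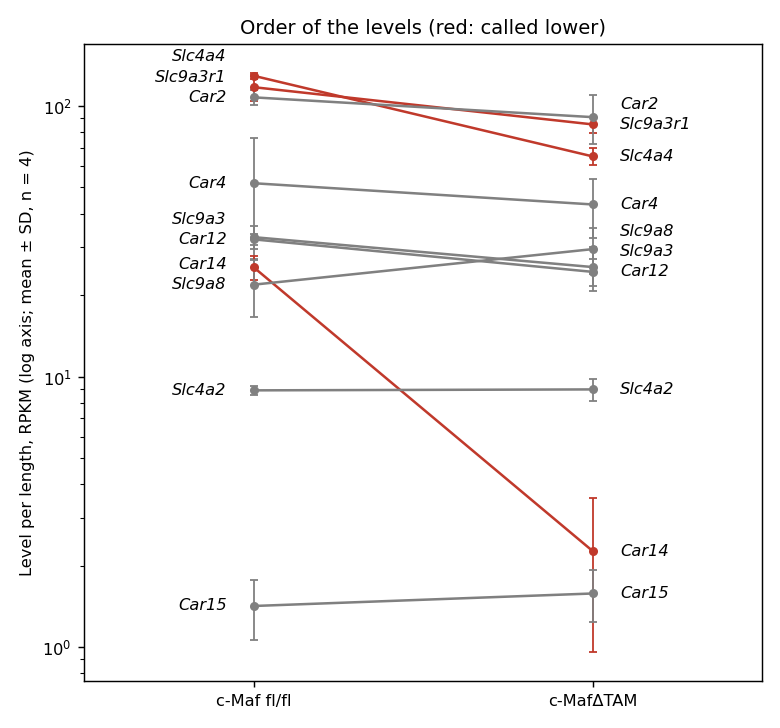
Mean level per length (RPKM, log axis, bars SD, *n* = 4) of each member in control and ΔTAM mice. Red lines are the 3 members called lower, of which *Slc4a4* moves from the top to rank 3 and *Car14* moves to rank 9, or to rank 10 over the exon bases that no other gene shares.

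To set *Slc4a4* against other proximal RNAs of the same library, marker lists were summed. The 10 proximal tubule markers summed to 16319 to 18541 CPM in ΔTAM mice and 18939 to 24498 CPM in control mice, and none of the markers was at 0. Of these markers, 1 was called lower by edgeR's quasi-likelihood test, against 1.58% of all genes tested, namely the phosphate transporter gene *Slc34a1* (log2 fold change -1.23), and the median over the list was -0.24. At an unadjusted *P* under 0.05, 3 of the 10 were lower, against 7.44% of all genes. In 2 of them, *Slc34a1* and the dicarboxylate transporter gene *Slc13a3* (-0.87), all ΔTAM mice lay below all controls, against 5.62%. In the other 8 markers the genotypes overlapped, with log2 fold changes from -0.49 to 0.37. The mean of *Slc34a1* alone was 1745 CPM in ΔTAM mice and 4098 CPM in controls, which weighs on the sum. The 5 markers of the early proximal segments S1 and S2 summed to 241 to 702 CPM in ΔTAM mice and 1779 to 2270 CPM in controls. Of these, 4 were called lower, against 1.58% of all genes, namely *Slc5a2* (log2 fold change -3.71), *Slc5a12* (-1.71), *Slc6a19* (-1.23), and *Gatm* (-3.78), and *Slc22a8* was not (-1.07). *Slc5a2*, the gene of the glucose cotransporter SGLT2, was itself studied as a c-Maf target, so this sum is not a measure of segment amount alone. The part of the S1 and S2 markers in the falls of *Slc4a4* and *Car14* was not tested. Only *Slc4a4* was set against the 10 proximal tubule markers.

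Relative to the mean of the 10 proximal tubule markers, the log2 ratio of *Slc4a4* was -0.82, -0.92, -1.18, and -1.27 in control mice and -1.89, -1.62, -1.71, and -1.58 in ΔTAM mice. All ΔTAM mice lay below all controls, by 0.65 on average. Relative to *Slc9a3*, the log2 ratio of *Slc4a4* was 1.78, 1.93, 2.08, and 2.16 in controls and 1.62, 1.28, 1.46, and 1.14 in ΔTAM mice. The basolateral exit gene had less RNA relative to the apical exchanger gene in every ΔTAM mouse, with a mean difference of -0.61. The log2 ratio of *Car14* to *Car4*, a pair of membrane carbonic anhydrases, was -0.91 ± 0.59 in controls and -4.45 ± 1.14 in ΔTAM mice (SD, *n* = 4 each), a difference of -3.54. In 2-sided exact permutation tests over the 70 assignments of the mice, each of the 3 ratios gave *P* = 0.0286, the smallest value this design allows. It stayed 0.0286 after Benjamini-Hochberg adjustment over the 3, which cannot change equal values. The numerators, *Slc4a4* and *Car14*, already separated the genotypes, and members were chosen with earlier results known. These *P* values are therefore not separate support for the calls. Within the mice with high *Xist*, the differences were -0.77, -0.56, and -3.51 in the order given, and within the 3 mice with almost none they were -0.67, -0.50, and -4.66.

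**Figure D5:**
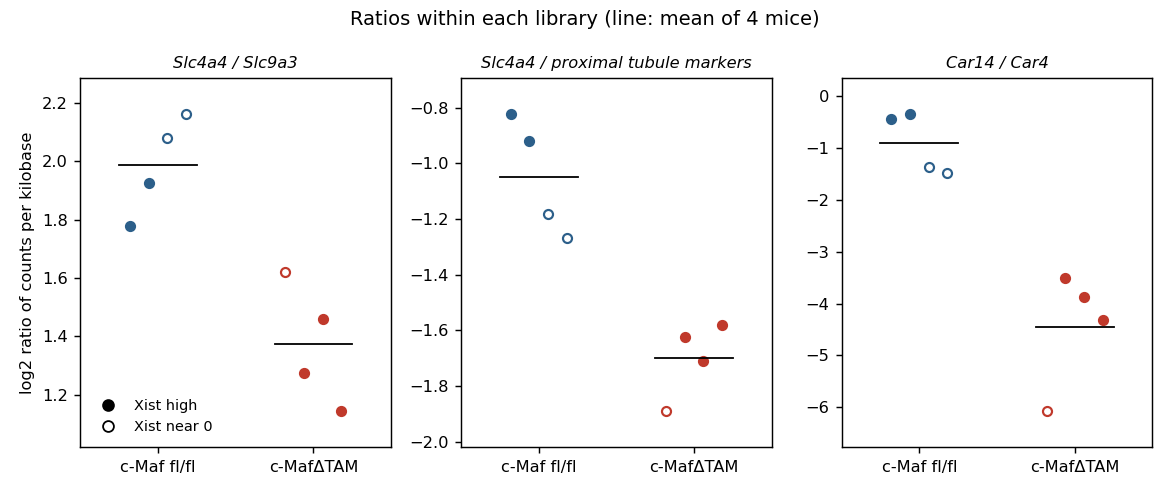
Log2 ratios of counts per kilobase within each library for *Slc4a4* to *Slc9a3*, *Slc4a4* to the mean of 10 proximal tubule markers, and *Car14* to *Car4*. In each panel all 4 ΔTAM mice (red) lie below all 4 control mice (blue), and open symbols mark mice with almost no *Xist*.

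Other genes of acid-base transport were examined in lists of related families. Of 54 genes, 49 were tested, and of these 2 were called lower (*Car9* and *Ezr*) and 1 was called higher (*Car5b*), where the shares over all genes were 1.58% and 0.586%, with a median log2 fold change of -0.011. *Car5b*, which encodes a mitochondrial carbonic anhydrase, stood at 51.9, 53.6, 59.3, and 45.0 CPM in control mice and 71.7, 102.8, 93.4, and 85.2 CPM in ΔTAM mice. All ΔTAM mice were above all controls, and the log2 fold change was 0.75 ± 0.12 (SE, adjusted *P* = 0.00620 by edgeR's quasi-likelihood test), called in 8 of 8 fits without 1 mouse.

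*Ezr* encodes ezrin, which links NHERF1 to the actin of the brush border. It stood at 438.0, 430.3, 341.4, and 423.0 CPM in control mice and 240.5, 296.9, 308.3, and 305.0 CPM in ΔTAM mice. The groups did not overlap, with a log2 fold change of -0.50 ± 0.11 (SE, adjusted *P* = 0.0398 by edgeR's quasi-likelihood test), but the call held in only 1 of 8 fits without 1 mouse, the fit without control mouse 3. *Car9*, the membrane enzyme carbonic anhydrase IX, was rare at 3.93 to 4.21 CPM in controls and 1.39 to 2.85 CPM in ΔTAM mice. Its log2 fold change was -1.13 ± 0.24 (SE, adjusted *P* = 0.0311 by the same test), again called in 1 of 8 fits without 1 mouse, the fit without ΔTAM mouse 1.

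The remaining lists held no called gene in edgeR's quasi-likelihood test. Of 8 other SLC4 genes, 0 were called in either direction and 2 were higher at an unadjusted *P* under 0.05, where 6.58% of all genes were higher. Per length, *Slc4a1*, the basolateral anion exchanger of intercalated cells, had the highest mean, at 11.8 ± 1.95 RPKM in controls and 13.5 ± 1.25 RPKM in ΔTAM mice, but its values overlapped those of *Slc4a9* in both genotypes, at 11.6 ± 1.71 and 11.5 ± 1.97 RPKM. Among 7 tested SLC9 genes, 0 were called and 0 passed unadjusted. Of 3 SLC26 genes, 0 were called and 0 passed unadjusted, led by the pendrin gene *Slc26a4* at 20.6 and 19.8 RPKM. Of 8 proton pump genes, 0 were called and 1 was lower unadjusted, and *Atp6v1a* stood at 63.3 and 70.6 RPKM. DESeq2 called 5 of the 49 genes lower, namely *Car9*, *Ezr*, *Pdzd3*, *Ptk2b*, and *Atp6v1e1*, and edgeR's exact test called 1, *Car9*, against 2.81% and 1.21% of all genes by each method. Apart from *Ezr*, 0 of the other 11 listed scaffolds and regulators of NHE3 and NBCe1 were called by the quasi-likelihood test, and over all 12 there were 4 lower and 2 higher at an unadjusted *P* under 0.05, where the shares over all genes were 7.44% and 6.58%. With the *Xist* covariate, *Pdzd3* (-0.45, adjusted *P* = 0.00845) and *Ptk2b* (-0.31, adjusted *P* = 0.0154) were also called lower by the quasi-likelihood test, but in the 5 mice with high *Xist* neither was called (-0.27 and -0.32, adjusted *P* = 0.119 and 0.0522).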

How the data were processed

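Whole kidney RNA of 4 *c-Maf*ΔTAM mice (ΔTAM) and 4 *c-Maf fl/fl* mice (controls) was depleted of ribosomal RNA and sequenced as 36-base pairs. The deposited counts were made by the authors with featureCounts 2.0.1 on exons of the Ensembl 102 annotation of GRCm38, by gene name, without normalization. Per the file headers, each read of a pair was counted separately, strand was ignored, and reads on exons of more than 1 gene were not counted. The submitters' processing notes also name Subread 2.0.2, a package that can align and count reads, and edgeR 3.36.0, without their roles. Which tool aligned the reads behind these counts was not determined here, and the study's own values came from another route (CLC Genomics Workbench), which was not repeated.

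Genes were kept by filterByExpr, scaled by TMM, and compared with edgeR 4.0.16's robust quasi-likelihood test without covariates, in R 4.3.3 with limma 3.58.1 and DESeq2 1.42.0. CPM were TMM-normalized, and RPKM divided them by the exon length in the file. The quasi-likelihood *P* values set the genotype difference against the variation between mice, moderated over all genes. Each SE of a log2 fold change is its absolute value divided by the square root of the *F* statistic. Exact permutation tests used 70 assignments. The members and gene lists were chosen with earlier results of these data known. Genes were named by a rule: all members, *Maf*, every other acid-base gene past the threshold, and in each list the gene with the highest mean level per length, of which some are not reported here. *Umod*, *Slc34a1*, *Slc13a3*, the S1 and S2 markers, *Kdr*, *Aph1a*, *Fastk*, *Gm20518*, *Pdzd3*, *Ptk2b*, *Atp6v1e1*, *Slc4a9*, and *Car7* were named after their values were seen. Scripts were tested on simulated data. Marker lists for S3, thick limb, distal convoluted tubule, principal cells, endothelium, and red blood cells were also summed. Their ΔTAM and control ranges (CPM) overlapped, with 241 to 470 and 273 to 699 for S3, 3262 to 5464 and 4116 to 5255 for thick limb, 1183 to 1783 and 1163 to 1885 for distal convoluted tubule, 364 to 554 and 356 to 622 for principal cells, 402 to 473 and 453 to 518 for endothelium (whose marker *Kdr* was called lower, log2 fold change -0.37, adjusted *P* = 0.045 by edgeR's quasi-likelihood test, with all ΔTAM mice below all controls), and 188 to 285 and 204 to 349 for red blood cells. Promoter windows came from RefSeq, and figures from matplotlib.

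Alternatives tried were other scaling factors (RLE, upper quartile), DESeq2, the exact test of edgeR (minimum total count 5), a loose filter (1 count in any mouse), a strict filter (10 counts in every mouse), a block for the replicate number, *Xist* as a covariate, the 5 mice with high *Xist*, library sizes without mitochondrial and ribosomal RNA genes, and each mouse left out. All pairs of libraries differed by more than sampling noise. Levels over exon bases that no other gene shares were added after the data were seen.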

Additional observations from a re-analysis of the deposited data

Results flagged for a closer look

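In 5 of 26 groups of 4 mice examined (the 10 members and the 3 other called genes in each genotype), 1 mouse stood apart from the other 3 by Dixon's criterion, where chance alone gives about 1.3. *Slc9a8* was 191.3 CPM in ΔTAM mouse 1 and 286.1 to 300.0 CPM in the others. *Car12* was 154.0 CPM in ΔTAM mouse 4 and 193.1 to 199.4 CPM in the others. *Car9* was 2.85 CPM in ΔTAM mouse 1 and 1.39 to 1.62 CPM in the others. *Ezr* was 240.5 CPM in ΔTAM mouse 1 (296.9 to 308.3 CPM in the others) and 341.4 CPM in control mouse 3 (423.0 to 438.0 CPM in the others). Of these, 3 values came from ΔTAM mouse 1, which had the highest mitochondrial share and is 1 of the 3 libraries with almost no *Xist*. Control mouse 3, with 1 flagged *Ezr* value, is another of these 3. The part of *Xist* and of the mitochondrial share was not tested.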

How the results depend on the processing

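*Slc4a4* and *Car14* stayed called lower, and *Car5b* called higher, under every alternative run. The members called lower numbered 2 to 4, except 6 with the *Xist* covariate, and those called higher 0, except 1 with that covariate. Leaving out 1 mouse gave 2 to 3 and 0. The other acid-base genes called lower were 2 in the main test, 1 with upper-quartile factors, 1 by edgeR's exact test, 0 with the replicate block, 4 with the *Xist* covariate, 5 by DESeq2, and 0 to 2 without 1 mouse, the 0 being reached without ΔTAM mouse 2, 3, or 4, or control mouse 2 or 4. *Car7* entered in the 5 mice with high *Xist*. *Slc4a2* reversed to -0.027 with the *Xist* covariate, and without 1 mouse it ranged from -0.025 to 0.080, below 0 without ΔTAM mouse 3 or 4 or control mouse 3. *Car4* reversed to 0.014 with the covariate and 0.33 in the 5 mice with high *Xist*. The cause was not tested.

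The replicate numbers did not pair the mice (correlations of deviations -0.37, 0.15, -0.11, and -0.33). The replicate block left 2 members lower, without *Slc9a3r1* (adjusted *P* = 0.229), and 129 of 20149 genes called against 436. It left the ratio differences at -0.61, -0.65, and -3.54, where the smallest *P* is 0.125. The ratio differences ranged from -0.69 to -0.53 (*Slc4a4* to *Slc9a3*), -0.73 to -0.58 (*Slc4a4* to markers), and -3.85 to -2.99 (*Car14* to *Car4*) without 1 mouse, where *P* cannot go below 0.0571. DESeq2 called 887 genes, edgeR's exact test 595, the *Xist* covariate 1374, and the 5 mice with high *Xist* 789. With 1 mouse left out, 239 to 452 genes were called, lowest without ΔTAM mouse 3. Low counts limit *Car9* and *Car15*.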
